A study of Danio rerio with 28 samples.

Results

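RNA enriched for new transcripts was compared between zebrafish embryos that lack the mir430 locus and wild type embryos at 256c, the 256-cell stage. The members were chosen by their labels alone, as the 3 mutant and 3 wild type libraries of 256c with iodoacetamide (IAA) treatment, 6 of the 28 libraries of the series. A wild type library of the same stage that had no IAA was left out. The wild type group carried no named allele. The mutant group was mir430-/- and, per the labels, also received a rescue solution of miR430, which wild type did not. Embryos of both groups were synchronized, freed of their chorions with Pronase, injected with the sulfur-carrying nucleotide s4UTP and collected whole. RNA that had taken up s4UTP was biotinylated, pulled down on beads and treated with IAA, which alters the base read at each labelled position (enriched SLAM-seq). Altered bases were not counted here. Unlabelled RNA carried along in the pull-down therefore cannot be told apart from new RNA, and a rise or fall below is one of counts. The deletion, the injected microRNA and the strain of the mutant line go together in this design and cannot be told apart. The number of embryos per library, the clutches, the strains and how closely each collection was staged within 256c are not given in the sources used here. A small difference in age between collections therefore cannot be told apart from genotype. The labels speak of biological triplicates, so a p-value here reflects only how much the libraries that enter its test vary.

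The first divisions of a zebrafish embryo run on RNA and protein left by the mother, and the embryo's own genome is switched on over the following cycles, a change called zygotic genome activation. The mir430 locus is among the first to be transcribed. It gathers RNA polymerase II into the most prominent transcription bodies of these nuclei, and the microRNA made from it promotes clearance of maternal transcripts. CDK9 is the kinase of P-TEFb, which phosphorylates polymerase II and lets it pass from a paused state into elongation. The title of the series links transcription bodies to CDK9, and its design text asks what follows when 2 such bodies are lost.

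The mutant libraries held 10498391, 7670816 and 11342659 counts and the wild type libraries 7995656, 13164445 and 6155531. Most counts were mitochondrial, so nuclear genes took 2.46%, 7.46% and 5.59% in mutant replicates 1, 2 and 3 and 2.56%, 1.22% and 2.67% in wild type (two-sided exact permutation p = 0.3, a test that cannot go below 0.1 with 3 against 3). With mir430 left out these shares were 2.46%, 7.46% and 5.59% against 2.45%, 1.14% and 2.3%, and the groups no longer overlapped (exact permutation p = 0.1), though by a narrow margin at mutant replicate 1. Nuclear counts other than mir430 came to between 258243 and 634139 in the mutant and between 140746 and 195669 in wild type, and the 2 groups did not overlap in this depth. Mutant replicate 1 lay nearest to wild type. Its rank correlation over genes was between 0.66 and 0.69 with the wild type libraries, 0.81 with mutant replicate 2 and 0.63 with mutant replicate 3. Mutant replicate 3 lay farthest, at 0.42 to 0.44 with wild type, while wild type pairs reached 0.80 to 0.84. These are correlations across genes, which are not independent replicates.

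**Figure D1:**
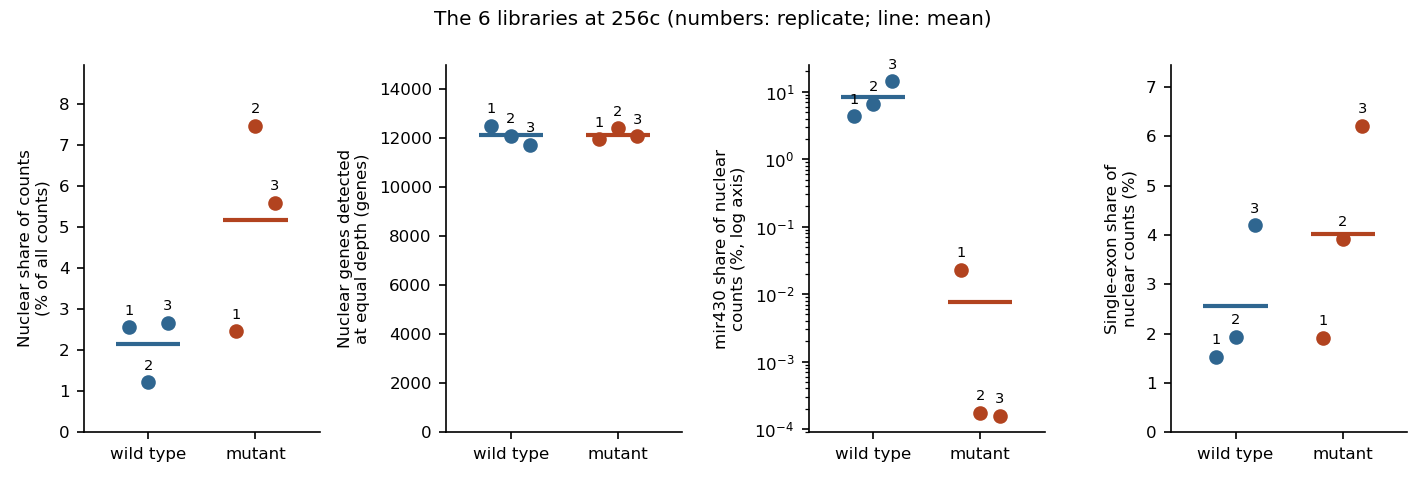
Values of the 6 libraries at 256c by genotype, with the replicate number beside each point and the group mean as a line: nuclear share of all counts (%), nuclear genes detected at equal depth (genes), mir430 share of nuclear counts (%, log axis) and share of nuclear counts in single-exon genes (%). The mir430 share separates the genotypes, mutant replicate 1 sits among the wild type libraries for the nuclear share, and the genes detected at equal depth overlap.

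The deleted locus served as a check of the labels. Of 54 annotated mir430 copies on chromosome 4 (28693371 to 28709534, GRCz11), 51, 51 and 53 had counts in the wild type libraries, and together they took 4.33%, 6.69% and 14.2% of nuclear counts. In mutant replicate 1, 18 copies held 59 counts in all, or 0.0228% of nuclear counts (Wilson 95% interval 0.0177 to 0.0295). Replicates 2 and 3 held 1 count each. The groups did not overlap (exact permutation p = 0.1, the smallest possible). The copies share sequence, so the split of reads among them is uncertain.

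The number of nuclear genes with counts was 15679 ± 1858 in the mutant and 12401 ± 796 in wild type as deposited (SD, n = 3; exact permutation p = 0.1). After each library was rarefied to the 140746 nuclear counts of the shallowest, the expected numbers were 12132 ± 232 and 12093 ± 385 (SD, n = 3; exact permutation p = 1). The excess seen in the deposited counts was not present at equal depth. With at least 2 counts asked for at that depth, the mutant had fewer genes, 9003 ± 394 against 9876 ± 222 (SD, n = 3; exact permutation p = 0.1). On that measure every mutant library lay below every wild type library.

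Genes that differed were then counted. Among 12498 genes tested, 1320 were higher in the mutant (10.6%) and 360 lower (2.88%) by edgeR's quasi-likelihood test at an adjusted p under 0.05. Of the lower genes 43 were mir430 genes, which left 317 of 12449 (2.55%). The libraries of the 2 groups did not overlap for 1027 of the 1320 rises and for 297 of the 317 falls. Over all genes tested, every mutant library was above every wild type library for 18.6% and below for 8.34%. In 278 of the rises wild type held 0 counts (21.1%), and in 21 of the 317 falls the mutant did (6.62%). Over all 12498 genes tested, mir430 included, wild type held 0 counts in 1344 and the mutant in 239. Wild type libraries had fewer nuclear counts, and the part of depth in these numbers was not tested.

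The balance of rises and falls rested on the scaling. The median log2 fold change of all genes was 0.46 with TMM factors on nuclear genes, which correct for a few genes that take much of a library, and -0.42 with nuclear library sizes alone, which gave 648 higher (4.95%) and 646 lower (4.93%), so that 50.1% of calls were upward against 78.6%. Of these, 647 and 359 were among the 1320 and 360. Fitted on the 6 libraries of 256c alone, where 5883 genes passed the filter, 584 were higher (9.93%) and 331 lower (5.63%), and 63.8% of calls were upward. That filter used these 6 libraries only, so a gene near 0 in 1 group passed only where the other group was high. Shares of gene lists from this fit are therefore descriptions. Without replicate 1, 2 or 3 of wild type the counts fell to 559, 666 and 697 higher and 228, 229 and 235 lower. Without mutant replicate 1 there were 1632 higher and 241 lower, without replicate 2 1026 and 248, and without replicate 3 564 and 211. Mutant replicate 1 was the lowest mutant library for 70.3% of the rises, against 49.1% of all genes tested, and replicate 3 the highest for 69.8%, against 43.5%.

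**Figure D2:**
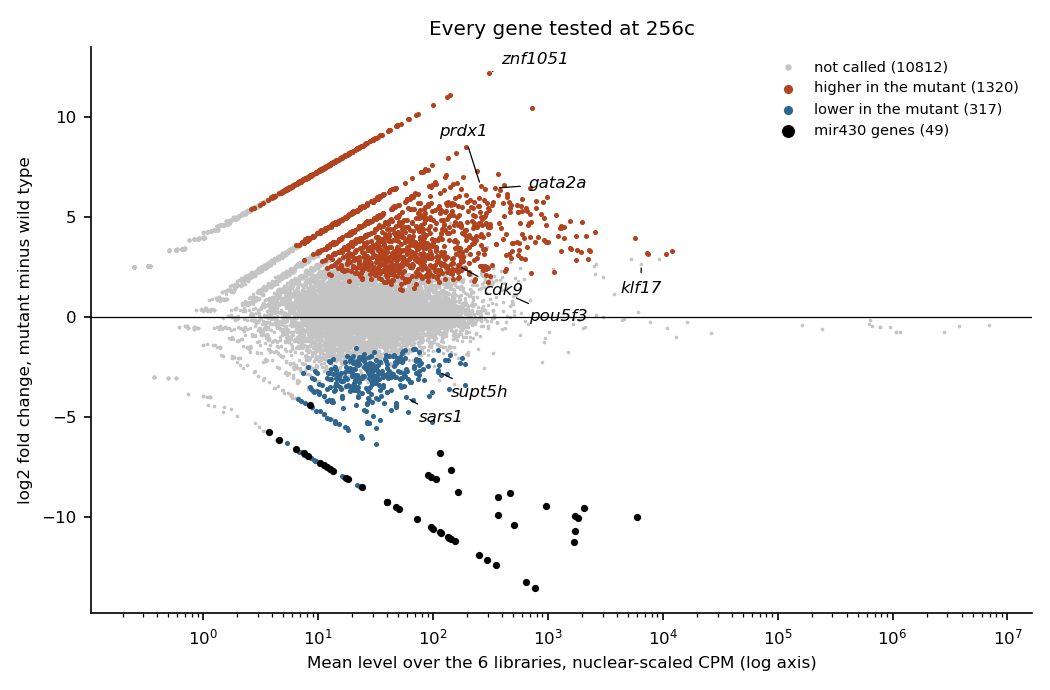
Each point is a gene tested at 256c, with its mean level over the 6 libraries in nuclear-scaled CPM (log axis) and its log2 fold change, mutant minus wild type. The 1320 rises and the 317 falls other than mir430 lie on both sides of 0, straight lines of points at the upper and lower left are genes with 0 counts in 1 group, and the points at the far right are mitochondrial genes.

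Levels below are given as CPM, counts per 1000000 nuclear counts other than mir430 after TMM scaling, in replicates 1, 2 and 3 of a group. Log2 fold changes are mutant minus wild type from the fit of all 24 IAA libraries. cdk9 (chromosome 21, 6136981 to 6150568, GRCz11) had 275, 241 and 335 CPM in the mutant and 93.9, 29.8 and 17.4 CPM in wild type. All 3 mutant libraries lay above all 3 wild type libraries, and at this scaling the gap between the groups was wider than the range of the wild type libraries. The log2 fold change was 2.56 (SE 0.64, adjusted p = 0.0109), and 0.0289 was the adjusted p with the 6 libraries alone. The call was lost without TMM factors (log2 fold change 1.71, adjusted p = 0.129), without wild type replicate 2 (2.39, adjusted p = 0.0585) and without wild type replicate 3 (2.18, adjusted p = 0.0626). Without TMM factors cdk9 had 507, 280 and 265 CPM in the mutant and 215, 66.6 and 35.5 CPM in wild type. The groups were still apart there, but by less than the wild type range. The authors' deposited table gives cdk9 a log2 fold change of 2.24 with an SE of 0.567 and an adjusted p of 0.000765.

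cdk9 belongs to a list of 51 tested genes that control elongation, of which 7 were higher and 3 lower, against 10.6% and 2.88% of all genes. Without TMM factors 1 was higher and 5 lower. The bromodomain gene brd2a had 548, 3974 and 10298 CPM in the mutant and 190.0, 167 and 421 CPM in wild type (log2 fold change 4.25, SE 0.99, adjusted p = 0.00719). Its mutant libraries differed widely from each other, with replicate 1 the lowest, and all lay above wild type. ell, a subunit of super elongation complexes, had 504, 675 and 293 against 91.7, 38.7 and 122 CPM (log2 fold change 2.55, SE 0.69, adjusted p = 0.016), with no call without TMM factors (adjusted p = 0.178). rprd2a, which encodes a protein that binds the polymerase II tail, had 73.5, 104 and 25.9 against 4.47, 11.9 and 13.9 CPM (log2 fold change 2.79, SE 0.77, adjusted p = 0.0188), and its call was lost in the same way (adjusted p = 0.171). The calls of both were also lost without wild type library 1 or 2 or mutant library 2 (adjusted p up to 0.0858 and 0.103). hexim1, an inhibitor that holds P-TEFb in an inactive complex, rose as well, at 2.38 (adjusted p = 0.0251, 0.192 without TMM factors, and up to 0.119 without wild type library 1 or 3 or mutant library 1 or 2). The cyclin partners of the kinase did not pass, at -0.07 for ccnt1 (adjusted p = 0.971) and 0.43 for ccnt2b (adjusted p = 0.698).

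Among the falls, supt5h, the DSIF subunit that P-TEFb phosphorylates, had 29.4, 25.6 and 31.9 CPM in the mutant and 168, 301 and 115 CPM in wild type (log2 fold change -2.74, SE 0.55, adjusted p = 0.0025). ctr9, a core subunit of the PAF complex that travels with polymerase II, had 2.1, 10.5 and 11.9 against 53.7, 71.5 and 55.6 CPM (log2 fold change -2.83, SE 0.55, adjusted p = 0.00229). For both genes every mutant library lay far below every wild type library, and the calls held under each of the 17 alternatives tried. kmt2a, a histone H3 lysine methyltransferase gene, fell, with 18.9, 24.1 and 11.9 against 49.2, 98.3 and 118 CPM (log2 fold change -2.25, SE 0.63, adjusted p = 0.0202), a call lost without wild type library 2 or 3 or mutant library 3 (adjusted p up to 0.0999).

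A list named for maternal activators of the zygotic genome, with partner genes, came next. Of 20 tested genes in the list of maternal activators and their partners, 5 were higher (25%, against 10.6% of all genes) and none lower (against 2.88%). The median log2 fold change was 1.24 against 0.46 over all genes. pou5f3, the zebrafish POU factor of this trio, had 521, 478 and 992 CPM in the mutant and 478, 280.1 and 223 CPM in wild type (log2 fold change 1.02, SE 0.63, adjusted p = 0.315). sox19b, the SoxB1 factor, had 172, 182 and 390.4 against 487, 199.6 and 157 CPM (log2 fold change -0.18, SE 0.57, adjusted p = 0.895). nanog had 449, 1790.4 and 3348 against 322, 390.3 and 344 CPM (log2 fold change 2.40, SE 0.85, adjusted p = 0.0603). The groups overlapped for pou5f3 and sox19b and not for nanog, whose mutant libraries lay above wild type by very different amounts. nanog passed in 3 of 17 alternatives, without mutant replicate 1 (adjusted p = 0.0246), by DESeq2 (adjusted p = 0.0343) and by limma voom with sample weights (adjusted p = 0.000777).

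The 5 that rose were foxh1, vgll4l, tfap2a, cebpb and brd3b. foxh1, the forkhead factor that Nodal signalling works through, had 197, 839 and 2197 CPM in the mutant and 20.1, 26.8 and 38.3 CPM in wild type (log2 fold change 5.25, SE 1.00, adjusted p = 0.00199). tfap2a, an AP-2 factor of the surface ectoderm, had 25.2, 209 and 819 against 6.71, 5.96 and 10.4 CPM (log2 fold change 5.51, SE 1.25, adjusted p = 0.00582). Each wild type library was below each mutant library, and mutant replicate 1 was nearest to wild type in both. vgll4l, a vestigial-like cofactor gene, had 1 wild type count and a ratio of 192 (counting interval 34.1 to 7597). cebpb, a C/EBP factor gene, had 2.1, 81.4 and 167 CPM in the mutant and 0 wild type counts. Pooled over the group it was at least 30.2-fold higher, a bound set by 3 counts over the wild type group. Mutant replicate 1 held only 1 count of it. In wild type cebpb, vgll4l and tfap2a held 0, 1 and 8 counts at 256c. At Sphere their wild type levels were 231, 2766 and 953 CPM, so the name of the list does not make their RNA maternal. brd3b, another bromodomain gene, rose by 2.47 with an adjusted p of 0.0349, 0.266 without TMM factors, and up to 0.154 without wild type library 1 or 3 or mutant library 2 or 3. Nor was brd3b called with DESeq2's scaling factors in edgeR or with the 6 libraries alone (edgeR adjusted p = 0.0563). Without TMM factors 4 of the 20 in the list were higher and 1 lower, against 4.95% and 4.93% of all genes.

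Regulators of the body plan had the highest share of rises among the 8 groups of lists. Of 85 tested patterning factors in 4 lists, 44 were higher (51.8%, against 10.6% of all genes) and none lower. Without TMM factors 30 of 83 were higher (4.95% of all genes), and with the 6 libraries alone 21 of 31 (9.93% of all genes). In the latter fit members near 0 in wild type passed the filter only if high in the mutant, so its share is a description. With 1 library left out 88 were tested. The number higher was 16, 20 and 27 without wild type replicate 1, 2 or 3. It was 54, 37 and 17 without mutant replicate 1, 2 or 3. The ventral and Krüppel-like factors counted 9 of 18. klf2a, a Krüppel-like factor gene, had 86.1, 1038 and 1494 CPM in the mutant and 4.47, 8.94 and 24.3 CPM in wild type (log2 fold change 6.15, SE 1.14, adjusted p = 0.00166), and gata2a, a GATA factor of ventral ectoderm and blood, had 116, 567 and 1394 against 15.6, 0 and 6.96 CPM (log2 fold change 6.43, SE 1.20, adjusted p = 0.00171). In both, all mutant libraries exceeded all wild type libraries and the lead of replicates 2 and 3 over replicate 1 was large. klf2b and gata3 rose with log2 fold changes of 5.76 and 4.55 (adjusted p = 0.00338 and 0.00553).

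3 abundant genes of the same list did not pass. klf17, a Krüppel-like factor of the enveloping layer and hatching gland, had 1212, 10847 and 21599 CPM in the mutant and 753, 1889 and 2734 CPM in wild type (log2 fold change 2.65, SE 0.96, adjusted p = 0.066). vox, a ventral homeobox repressor of dorsal genes, had 470.4, 2948 and 11205 against 396, 1016 and 2247 CPM (adjusted p = 0.196). Their groups overlapped, because mutant replicate 1 lay within the wild type range. In wild type too, both genes rose from replicate 1 to replicate 3. vent, the companion of vox, stood at 1.89 on the log2 scale (adjusted p = 0.21).

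Of 31 neural and anterior factors 14 were higher. foxd5, a forkhead gene of the early neural plate, had 71.4, 437 and 1191 CPM in the mutant and 4.47, 8.94 and 6.96 CPM in wild type (log2 fold change 6.38, SE 1.08, adjusted p = 0.000902). sox19a, a SoxB1 gene that the embryo itself transcribes, had 56.7, 295 and 621 against 2.24, 11.9 and 6.96 CPM (log2 fold change 5.54, SE 1.07, adjusted p = 0.00219). Both were low in every wild type library and higher in every mutant library. zic2b, a zinc finger factor of the neural plate, reached 14.7, 134 and 227 CPM in the mutant libraries while wild type held none, which made it at least 45.6-fold higher. irx1b, an Iroquois homeobox gene, had 1 wild type count and a ratio of 175 (counting interval 31.2 to 6953).

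Of 24 factors of mesoderm, endoderm and the organizer 15 were higher, and all 24 log2 fold changes were positive with TMM factors. gsc, the organizer homeobox gene, had 31.5, 427 and 1306 CPM in the mutant and 2.24, 14.9 and 24.3 CPM in wild type (log2 fold change 5.45, SE 1.25, adjusted p = 0.00647). noto, the notochord homeobox gene, had 46.2, 651 and 1279 against 15.6, 2.98 and 17.4 CPM (log2 fold change 5.76, SE 1.18, adjusted p = 0.00294). Every mutant library was above every wild type library in both. cxcr4a, a chemokine receptor gene of the endoderm, and foxd3, a forkhead gene, rose by 4.84 and 4.71 on the log2 scale (adjusted p = 0.00249 and 0.00721). mixl1, a mesendodermal homeobox gene, had 10.5, 52.7 and 99.6 against 11.2, 5.96 and 24.3 CPM and did not pass (adjusted p = 0.132). Of 12 hairy and Enhancer-of-split repressor genes 6 were higher, among them her6 (adjusted p = 0.00865). her6 had 0, 75.4 and 118 CPM in the mutant and 0 wild type counts. Mutant replicate 1 thus held no counts, as in wild type, and the bound of at least 23.7-fold is for the pooled counts of the group. her11 and her1 rose by 4.00 and 3.57 (adjusted p = 0.0168 and 0.0138), and both calls were lost without wild type library 1 or 2 or mutant library 3 (adjusted p up to 0.117 and 0.177), that of her11 also without wild type replicate 3.

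Signalling genes followed with 24 of 79 higher (30.4%, against 10.6% of all genes) and none lower. Without TMM factors 18 of 80 were higher (4.95% of all genes), and with the 6 libraries alone 11 of 43 (9.93% of all genes), under the same limit of the filter. The number higher was 13, 16 and 17 of 83 without wild type replicate 1, 2 or 3. It was 35, 20 and 12 of 84 without mutant replicate 1, 2 or 3. Among 16 tested Nodal genes only 1 was called (6.25%, against 10.6% of all genes). It was tdgf1, the co-receptor, at 372, 500.4 and 950.0 CPM in the mutant and 20.1, 26.8 and 34.8 CPM in wild type (log2 fold change 4.48, SE 0.84, adjusted p = 0.00179). Its groups lay more than 10-fold apart. The ligand gene ndr1 had 116, 265 and 1257 against 91.7, 128 and 174 CPM (log2 fold change 2.06, SE 0.83, adjusted p = 0.102), and the inhibitor genes lft1 and lft2 had log2 fold changes of 2.11 and 2.74 (adjusted p = 0.102 and 0.0521). ndr1 overlapped between the groups through mutant replicate 1.

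Of 23 genes of BMP signalling and the organizer 9 were higher. The ligand gene bmp2b had 81.9, 231 and 588 CPM in the mutant and 0, 11.9 and 6.96 CPM in wild type (log2 fold change 5.62, SE 1.09, adjusted p = 0.00227). admp, a dorsally made BMP ligand, had 75.6, 409.9 and 1171 against 0, 2.98 and 27.8 CPM (log2 fold change 5.84, SE 1.27, adjusted p = 0.00432). id1, a direct BMP target, had 25.2, 374 and 597 against 0, 8.94 and 6.96 CPM (log2 fold change 6.02, SE 1.21, adjusted p = 0.0027). All 3 were higher in each mutant library than in any wild type library, where admp reached 27.8 CPM in replicate 3. dharma, a maternal Wnt target that starts the organizer, had 137, 297 and 1085 against 152, 349 and 407 CPM, and its groups overlapped (adjusted p = 0.598).

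Of 19 FGF genes 5 were higher and of 21 Wnt genes 9. dusp6, a feedback phosphatase of the FGF pathway, had 119.7, 971 and 2379.9 CPM in the mutant and 13.4, 17.9 and 45.2 CPM in wild type (log2 fold change 5.52, SE 1.08, adjusted p = 0.00241). il17rd, an FGF antagonist also known as Sef, had 137, 148 and 61.7 against 0, 5.96 and 6.96 CPM (log2 fold change 4.83, SE 0.79, adjusted p = 0.000663). The order of the mutant libraries differed between them, with replicate 3 the highest for dusp6 and the lowest for il17rd. fgfr4, a receptor, had 2 wild type counts and a ratio of 108 (counting interval 29.7 to 897). In the Wnt list ctnnb1, which encodes beta-catenin, had 802, 906 and 848 against 145, 146 and 38.3 CPM (log2 fold change 2.95, SE 0.69, adjusted p = 0.00703), with mutant libraries within a narrow range at this scaling. The receptor genes fzd7a, with 2 wild type counts and a ratio of 145 (counting interval 39.9 to 1202), and fzd8a, with a log2 fold change of 4.50 (adjusted p = 0.00744), also rose.

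Marker lists of the embryo's layers were checked next. Embryos were collected whole, and whether each layer had already formed in them was not tested. A marker's level therefore does not show that its layer was present. In bulk RNA the number of cells of a type and the RNA per cell cannot be told apart either. Of 73 tested genes of the 4 lists 15 were higher (20.5%, against 10.6% of all genes) and 1 lower (1.37%, against 2.88%). The number higher was 6, 9 and 8 of 76 without wild type replicate 1, 2 or 3, and 8 of 75 without mutant replicate 3. Of 21 markers of the enveloping layer, a flat epithelium around the blastoderm, 8 were higher. krt8, a keratin gene, had 65.1, 193 and 257 CPM in the mutant and 1 wild type count, a ratio of 188 (counting interval 33.4 to 7442). grhl3, a Grainyhead factor of this epithelium, had 212, 3374 and 5445 against 62.6, 56.6 and 212 CPM (log2 fold change 4.77, SE 1.17, adjusted p = 0.00934). Mutant replicate 1 equalled the highest wild type library for grhl3, so the groups touched there, and the call was lost without wild type replicate 1 (adjusted p = 0.0517). krt5 and krt18a.1 had 0 wild type counts and were at least 5.43- and 8.69-fold higher, and leaving out 1 wild type library raised their adjusted p to 0.0564 and 0.0642. krt92 had 0 counts in all 6 libraries, and krt4 had counts in 1 mutant library.

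Of 10 genes of the yolk syncytial layer, the nuclei beneath the blastoderm, 5 were higher. With the 6 libraries alone 1 member passed the filter, and it was called, which says little because that filter drops members low in both groups. mxtx2, the homeobox gene that specifies this layer, had 1065, 2849.9 and 8735 CPM in the mutant and 203, 339.7 and 755 CPM in wild type (log2 fold change 3.29, SE 0.93, adjusted p = 0.0212), and the call was lost without wild type library 1 or 2 or mutant library 3 (adjusted p up to 0.16). Its call was also lost with DESeq2's scaling factors in edgeR and after thinning to equal nuclear depth. hnf4a and slc26a1 had 0 counts in all 6 libraries. Of 19 germ plasm genes none was higher and 1 was lower (5.26%), against 10.6% and 2.88% of all genes. The fall was tdrd5, a tudor domain gene (4.2, 6.03 and 1.99 against 26.8, 20.9 and 24.3 CPM, log2 fold change -2.49, SE 0.75, adjusted p = 0.0278). The germ cell genes ddx4, dazl and piwil1 had log2 fold changes of 0.76, -0.91 and -0.11, and none passed. The tdrd5 call was lost without any 1 wild type library and without mutant replicate 1 or 3 (adjusted p up to 0.121). Of 23 transcripts known from the oocyte 2 were higher, ybx1 and zp2l1 (8.70%, against 10.6% of all genes). zp2l1, an egg coat gene, rose by 3.08 (adjusted p = 0.0195, and up to 0.0939 without wild type library 1 or 3 or mutant library 3). ybx1, an RNA-binding protein gene, had 399, 615 and 319 against 31.3, 11.9 and 38.3 CPM (log2 fold change 4.03, SE 0.78, adjusted p = 0.00231), and no library of 1 group came near the other group. The summed level of the oocyte list was 4263, 2434 and 3147 CPM in the mutant and 1250, 1454 and 943 CPM in wild type. Without TMM factors the sums were 7861, 2823 and 2492 CPM in the mutant and 2857, 3251 and 1925 CPM in wild type, and the groups overlapped. The part of the oocyte list in the other results was not tested.

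**Figure D3:**
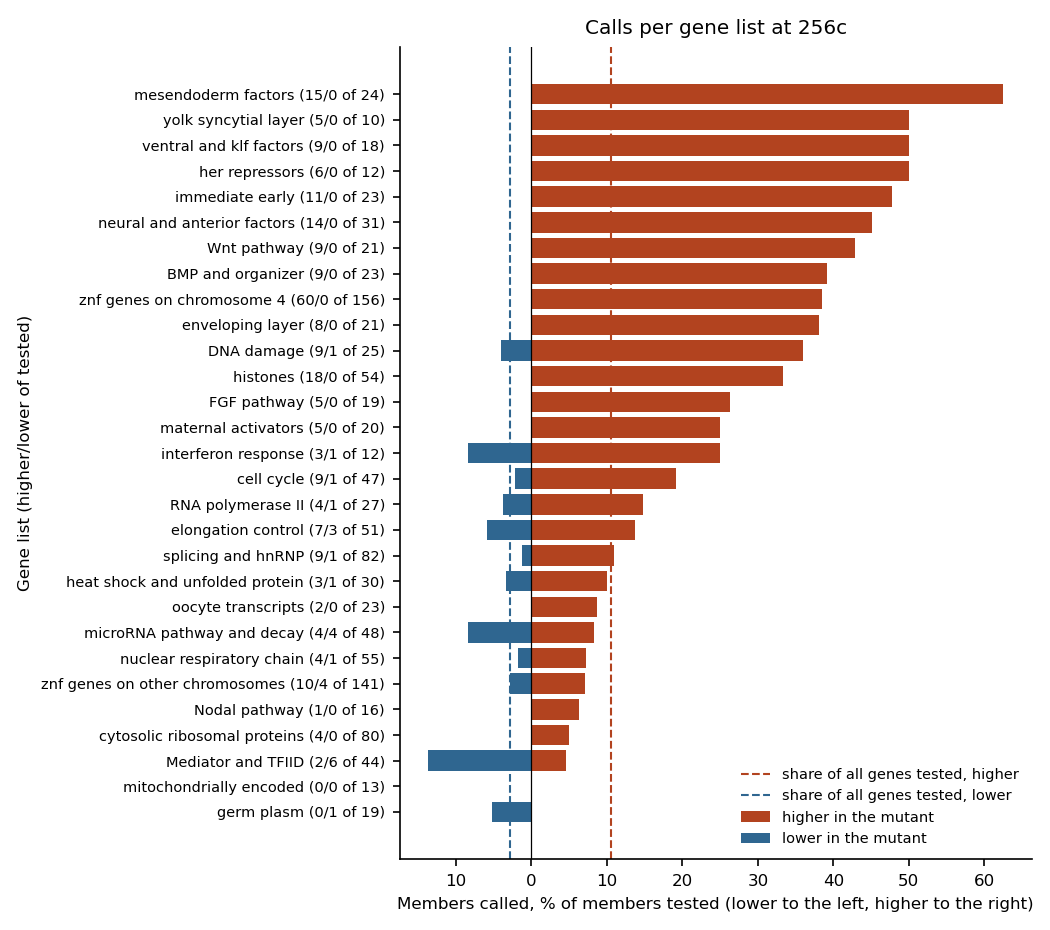
For each of 29 gene lists, the bar to the right gives the share of tested members higher in the mutant at 256c and the bar to the left the share lower (% of members tested), with the counts in brackets and dashed lines at the shares over all genes tested, 10.6% and 2.88%. The mesendoderm list reaches furthest to the right, with 15 of 24 members higher, and the Mediator and TFIID list reaches furthest to the left, with 6 of 44 members lower.

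Zinc finger genes were counted by chromosome. Of 156 tested znf genes on chromosome 4, where zebrafish zinc finger genes form long arrays, 60 were higher and none lower, and the log2 fold changes had a median of 3.85 (2.85 when genes absent from wild type enter at their lower bound, and 2.79 without TMM factors). Of 141 znf genes on other chromosomes 10 were higher (7.09%) and 4 lower (2.84%), against 10.6% and 2.88% of all genes. Their median was 0.75, and -0.18 without TMM factors. The chromosome 4 count was 47 without TMM factors and 16 of 23 with the 6 libraries alone, where the filter kept members near 0 in wild type only if high in the mutant. It was 18, 30 and 36 without wild type replicate 1, 2 or 3 and 76, 55 and 22 without mutant replicate 1, 2 or 3. znf1096 had 67.2, 754 and 1649 CPM in the mutant and 6.71, 11.9 and 6.96 CPM in wild type (log2 fold change 6.58, SE 1.35, adjusted p = 0.00293). znf1025 had 18.9, 79.9 and 253 CPM in the mutant and 2 wild type counts, a ratio of 61.6 (counting interval 16.8 to 512). Replicate 1 was by far the lowest mutant library for both and still above wild type. These genes are near copies of each other, which leaves the counts of single members uncertain.

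The distal part of chromosome 4 held other rises as well. From position 28000000 to the end of the chromosome, the side that holds the mir430 locus, 146 of 522 tested genes were higher (28.0%, median log2 fold change 2.96, and 2.17 without TMM factors). Before that position 26 of 294 were higher (8.84%, median 0.37, and -0.50 without TMM factors). Genes in the distal part without a znf symbol counted 86 of 367 (23.4%). The boundary was chosen with the position of the locus known, and the distal part is known for repeats and recent gene copies.

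On other chromosomes znf346, which encodes a binding protein of double-stranded RNA, had 445, 253 and 317 CPM in the mutant and 31.3, 14.9 and 6.96 CPM in wild type (log2 fold change 4.20, SE 0.71, adjusted p = 0.000851). znf839 fell, at 6.3, 13.6 and 29.9 against 93.9, 101 and 108 CPM (log2 fold change -2.60, SE 0.69, adjusted p = 0.0144), a call lost without mutant replicate 1 or 2 (adjusted p up to 0.0583). A pair of copies of 1 gene went opposite ways: znf143b rose by 2.29 (adjusted p = 0.0161, and 0.174 without TMM factors) and znf143a fell by 2.04 (adjusted p = 0.0224). Both calls were lost when single libraries were left out, with adjusted p up to 0.119 for znf143b without wild type library 2 or 3 or mutant library 3 and up to 0.0886 for znf143a without wild type library 1 or 2 or mutant library 1 or 2. Of 54 histone genes 18 were higher (33.3%, against 10.6% of all genes) and none lower, and 9 were higher without TMM factors (4.95% of all genes). Without wild type replicate 1, 2 or 3 there were 3, 6 and 7 of 54. All genes gave 559 of 13396, 666 of 13369 and 697 of 13413 in these fits. Without mutant replicate 3 there were 3 (564 of 13398 over all genes) and without mutant replicate 1 there were 20 (1632 of 13423). h2az2a, a variant H2A gene, had 305, 470.2 and 548 against 78.2, 86.4 and 62.6 CPM (log2 fold change 2.54, SE 0.60, adjusted p = 0.00752), with all mutant libraries above wild type. Many of the other histone genes are copies with the same symbol, so their single counts are uncertain.

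Of 252 tested members of the transcription and RNA processing machinery 26 were higher (10.3%, against 10.6% of all genes) and 15 lower (5.95%, against 2.88%). Without TMM factors these were 10 and 19. In the Mediator and TFIID list 2 of 44 were higher and 6 lower. ccnc, the cyclin of the Mediator kinase module, had 16.8, 7.54 and 35.8 CPM in the mutant and 132, 137 and 80.0 CPM in wild type (log2 fold change -2.55, SE 0.66, adjusted p = 0.0127). taf7, a TFIID subunit, had 3 mutant counts and a ratio of 12.3 (counting interval 3.73 to 63.7) in favour of wild type. med19a had 3 mutant counts as well and a ratio of 11.8 (counting interval 3.55 to 61.2). The groups did not overlap for ccnc or taf7 and came close for med19a through wild type replicate 3. Without wild type replicate 2 the list held 1 fall, and without mutant replicate 2 also 1, where the adjusted p of ccnc was 0.0638.

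Of 27 polymerase II and general factor genes 4 were higher (14.8%, against 10.6% of all genes) and 1 lower (3.70%, against 2.88%). polr2j, a polymerase subunit, had 103, 33.2 and 71.7 CPM in the mutant and 6.71, 2.98 and 0 CPM in wild type (log2 fold change 4.22, SE 1.01, adjusted p = 0.00823). polr2a, the largest subunit, had 96.6, 102 and 147 against 80.5, 104 and 83.5 CPM, with overlapping groups (adjusted p = 0.75). Of 82 splicing and hnRNP genes 9 were higher and 1 lower. sf3a2, of the U2 particle, had 143, 152 and 119 against 8.94, 2.98 and 0 CPM (log2 fold change 4.92, SE 0.73, adjusted p = 0.000473), and the mutant libraries lay close together at this scaling. hnrnpa0b, an hnRNP gene, had 454, 3790.3 and 7313 against 62.6, 83.4 and 296 CPM (log2 fold change 4.71, SE 1.07, adjusted p = 0.00574), with a steep difference between mutant libraries. srsf7a, an SR protein gene, was the 1 that fell, at 58.8, 55.8 and 97.6 against 246, 462 and 163 CPM (log2 fold change -2.04, SE 0.57, adjusted p = 0.0191, with adjusted p up to 0.129 without wild type replicate 2 or mutant replicate 1 or 2).

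In the microRNA pathway and mRNA decay list 4 of 48 tested genes were higher (8.33%, against 10.6% of all genes) and 4 lower (8.33%, against 2.88%). Without TMM factors 2 of 48 were higher and 5 lower, against 4.95% and 4.93% of all genes. The part of the injected microRNA was not tested. ago3b, an Argonaute gene, had 307, 199 and 116 CPM in the mutant and 2 wild type counts, a ratio of 109.5 (counting interval 30.1 to 908). dgcr8, the RNA-binding partner of Drosha in the nucleus, had 174, 149 and 81.7 against 22.4, 32.8 and 20.9 CPM (log2 fold change 2.41, SE 0.57, adjusted p = 0.00746), with no call without TMM factors (adjusted p = 0.119). btg1 and tob1a, antiproliferative proteins that recruit a deadenylase, rose by 5.34 and 2.99 (adjusted p = 0.00229 and 0.0222), the latter with adjusted p up to 0.0996 without wild type library 1 or 2 or mutant library 3. Among the falls were xrn1, the cytoplasmic 5′ to 3′ exonuclease, at 73.5, 63.3 and 39.8 against 262, 218 and 184 CPM (log2 fold change -1.91, SE 0.50, adjusted p = 0.0134), and pan3, of a deadenylase, at 12.6, 31.6 and 11.9 against 112, 89.4 and 62.6 CPM (log2 fold change -2.20, SE 0.56, adjusted p = 0.0119). Both calls were lost without wild type replicate 1 or mutant replicate 3 (adjusted p up to 0.0782 and 0.0711). cnot3b and dcp2 fell by 2.87 and 1.98 (adjusted p = 0.0175 and 0.0314), and their adjusted p reached 0.117 and 0.109 when 1 library was left out.

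Genes of the cell's state were looked at because injection and nucleotide labelling can stress an embryo. Of 135 tested members of 5 lists 33 were higher (24.4%, against 10.6% of all genes) and 4 lower (2.96%, against 2.88%). Without TMM factors 16 of 136 were higher and 5 lower, against 4.95% and 4.93% of all genes. The number higher was 12 of 140, 16 of 140 and 18 of 139 without wild type replicate 1, 2 or 3. It was 12 of 139 without mutant replicate 3. In the DNA damage list 9 of 25 were higher and 1 lower. With the 6 libraries alone 12 of 16 were higher, where the filter kept members near 0 in wild type only if high in the mutant. cdkn1a, which encodes the cell cycle inhibitor p21, had 239, 261 and 992 CPM in the mutant and 6.71, 0 and 34.8 CPM in wild type (log2 fold change 5.22, SE 1.33, adjusted p = 0.0116). sesn1, a stress-responsive sestrin gene, had 294, 377 and 625 against 8.94, 14.9 and 13.9 CPM (log2 fold change 5.10, SE 1.31, adjusted p = 0.0119). For both genes mutant replicate 1 stood well above wild type. The cdkn1a call was lost without wild type library 1 or 2 or mutant library 3, and that of sesn1 without wild type replicate 1 or 3 (adjusted p up to 0.0596 and 0.0566).

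Of 23 immediate early genes, which respond quickly to stimuli, 11 were higher. ier5 had 67.2, 277 and 534 CPM in the mutant and 6.71, 11.9 and 6.96 CPM in wild type (log2 fold change 5.09, SE 0.97, adjusted p = 0.002), and ier5l had 29.4, 466 and 653 against 6.71, 2.98 and 6.96 CPM (log2 fold change 6.07, SE 1.13, adjusted p = 0.00166). ier2a had 0 wild type counts and was at least 33.9-fold higher. egr1 had 0 counts in all 6 libraries. In the cell cycle list 9 of 47 were higher and 1 lower. wee1, a kinase that holds back mitosis, had 119.7, 705 and 1456 against 26.8, 59.6 and 66.1 CPM (log2 fold change 3.91, SE 0.92, adjusted p = 0.00744), and mych, a Myc family gene, had 39.9, 163 and 364 against 6.71, 2.98 and 0 CPM (log2 fold change 5.69, SE 1.16, adjusted p = 0.00286). The fall was cdkn1bb, a p27 gene, at 8.4, 21.1 and 79.7 against 169.9, 298 and 108 CPM (adjusted p = 0.0435), which was not called without any 1 wild type library or without mutant replicate 1 or 2 (adjusted p up to 0.162).

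Of 30 heat shock and unfolded protein genes 3 were higher and 1 lower, near the background. 2 disulfide isomerase genes went opposite ways, pdia6 at 267, 312 and 97.6 CPM in the mutant and 24.6, 5.96 and 13.9 CPM in wild type (log2 fold change 3.88, SE 0.76, adjusted p = 0.00232) and pdia4 at 12.6, 13.6 and 55.8 against 235, 226 and 160.0 CPM (log2 fold change -2.93, SE 0.82, adjusted p = 0.0193). The groups of neither overlapped. The pdia4 call was lost without wild type replicate 1 or mutant replicate 1 or 2 (adjusted p up to 0.0834). Of 12 interferon response genes irf7, isg15 and adar were higher and stat1a lower, and each call was lost without wild type replicate 1 or 2 (adjusted p up to 0.0642, 0.126, 0.331 and 0.207).

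Housekeeping genes gave few calls. Of 80 cytosolic ribosomal protein genes 4 were higher (5%) and none lower. Of 55 nuclear genes of the respiratory chain 4 were higher (7.27%) and 1 lower (1.82%), against 10.6% and 2.88% of all genes. Of 13 mitochondrially encoded genes none was called. The last 13 all had negative log2 fold changes (median -0.50, and -1.30 without TMM factors), at a scale set on nuclear genes. atp5meb, an ATP synthase subunit, had 143, 191 and 125 CPM in the mutant and 3 wild type counts, a ratio of 56.1 (counting interval 19 to 274). ndufs8a, of complex I, fell, at 2.1, 12.1 and 17.9 against 84.9, 77.5 and 76.5 CPM (log2 fold change -2.87, SE 0.59, adjusted p = 0.003). Both calls held under each of the 17 alternatives. The median of the ribosomal list was 1.13, and 0.05 without TMM factors.

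The genes with the widest gap between the groups were described apart from the lists. They were the called genes whose lowest library of the higher group exceeded the highest library of the lower group by most, with a mean of at least 50 CPM, among 625 rises and 131 falls. Since the gap chose them, their separation is a description. gng5, a G protein gamma subunit gene, had 762, 467 and 705 CPM in the mutant and 13.4, 5.96 and 20.9 CPM in wild type (log2 fold change 5.59, SE 0.73). prdx1, a peroxiredoxin gene, had 393, 527 and 631 against 6.71, 8.94 and 0 CPM (6.53, SE 0.78). rnaseh1, which encodes the enzyme that degrades RNA paired to DNA, had 294, 241 and 267 against 2.24, 5.96 and 6.96 CPM (5.76, SE 0.84). At this scaling the mutant libraries of all 3 lay within a factor of 2 of each other and replicate 1 was not set apart. Without TMM factors replicate 1 was the highest mutant library in each. The mutant levels there were 1406, 542 and 558 CPM for gng5, 724, 612 and 500 for prdx1 and 542, 280 and 211 for rnaseh1. prdx1 (chromosome 2, 6104378 to 6115688) and gng5 (chromosome 2, 6243144 to 6249163) lie near each other.

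hypk, a huntingtin interactor gene, had 195, 225 and 173 CPM in the mutant and 1 wild type count, a ratio of 215 (counting interval 38.2 to 8498). gbgt1l4, a glycosyltransferase-like gene, had 365, 386 and 201 CPM and 1 wild type count, a ratio of 346 (counting interval 61.9 to 13700.5). 7 more rises had 0 wild type counts. Their lower bounds were 225-fold for znf1051, 35-fold for hadh, 31.3-fold for srek1ip1, 22.6-fold for dpp4, 22.4-fold for igf2a, 19.3-fold for ppp2r2aa and 18.7-fold for her12. igf2a encodes an insulin-like growth factor, hadh an enzyme of fatty acid oxidation and dpp4 a peptidase. The call of her12, a Hairy family gene, was lost without TMM factors (adjusted p = 0.0507), without each wild type library in turn and without mutant replicate 3 (adjusted p up to 0.0758).

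Among the falls, gtf3ab, a gene for the 5S RNA factor TFIIIA, had 16.8, 22.6 and 21.9 CPM in the mutant and 304, 289 and 170.4 CPM in wild type (log2 fold change -3.63, SE 0.67). sbf1, a myotubularin-related gene, had 18.9, 15.1 and 5.97 against 188, 185 and 174 CPM (-3.76, SE 0.96). sars1, which encodes seryl-tRNA synthetase, had 8.4, 7.54 and 3.98 against 134, 86.4 and 111 CPM (-4.03, SE 0.85). In all 3 the wild type libraries lay within a factor of 2 of each other and the mutant kept a low residual level. cul1b, a cullin of ubiquitin ligases, had 2.1, 6.03 and 3.98 against 96.1, 77.5 and 101 CPM (-4.41, SE 0.89). 6 falls had 2 or 3 counts in the mutant group: the ratio in favour of wild type was 49.8 (counting interval 13.3 to 420.3) for arhgap45b, 42.9 (counting interval 11.3 to 363) for pou6f1, 42.9 (counting interval 11.3 to 363) for ognb, 39.9 (counting interval 13.2 to 198) for cuedc1b, 33.2 (counting interval 10.9 to 165) for usf1 and 29.1 (counting interval 9.48 to 145) for mtmr1a. ttc39c and eef1akmt2 completed the 12, with log2 fold changes of -4.30 and -4.29. Without mutant replicate 3 the calls of sbf1, pou6f1, ttc39c and mtmr1a were lost, with adjusted p between 0.0561 and 0.0753, and that of mtmr1a also without wild type replicate 1 or mutant replicate 1 or 2.

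**Figure D4:**
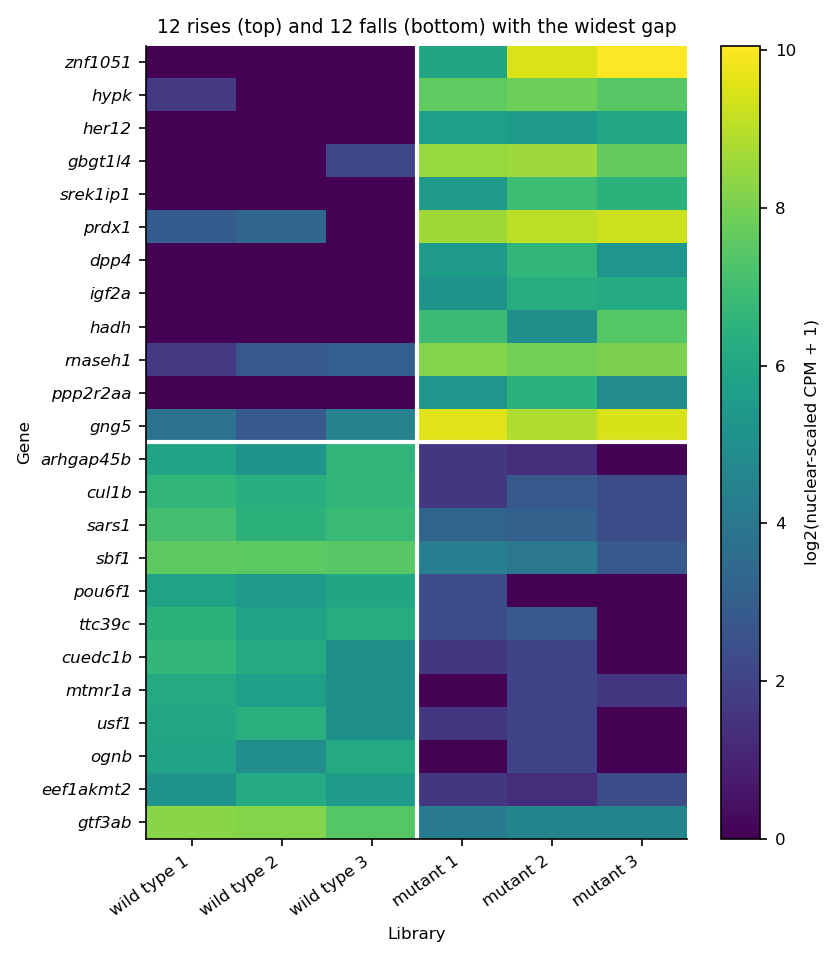
Levels of the 12 rises (top) and 12 falls (bottom) with the widest gap, as log2 of nuclear-scaled CPM plus 1 (colour), in the 3 wild type and 3 mutant libraries at 256c. The rises are at or near 0 in wild type and the falls low in the mutant, and znf1051 and hadh vary most between the mutant libraries among the rises.

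The rises were shorter genes at the median, with fewer exons. The median span of the 1320 was 10582 bases, against 16867 over the 12449 genes tested other than mir430 and 20858 for the 317 falls. Without chromosome 4 the rises had a median of 10684, against 17501. The median number of exon blocks was 6, against 9 and 11. By quintile of span, from the shortest to the longest, the share called higher was 16.8%, 13.8%, 9.91%, 7.90% and 4.79%, and the share called lower went from 1.89% to 3.22%. The median log2 fold change fell from 1.38 to 0.09 over the quintiles, and from 0.38 to -0.69 without TMM factors. The median level over the 6 libraries rose over the same quintiles from 15.1 to 27.1 CPM, and its part in the shares was not tested. Single-exon genes took 1.92%, 3.93% and 6.21% of nuclear counts in the mutant and 1.53%, 1.94% and 4.20% in wild type, with overlapping groups (exact permutation p = 0.5).

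1 set of tandem copies took a large share of the counts. 7 neighbouring genes without a descriptive name on chromosome 17 between 50037644 and 50071748 (GRCz11) held 2.02%, 8.57% and 15.5% of nuclear counts other than mir430 in the mutant and 0.748%, 2.30% and 3.91% in wild type. Mutant replicate 1 lay within the wild type range (8.71% ± 6.76 against 2.32% ± 1.58, SD, n = 3; exact permutation p = 0.3). In both groups the share rose from replicate 1 to replicate 3. 5 of the 7 passed the test, with adjusted p from 0.0343 to 0.0496. All 5 calls were lost without TMM factors (adjusted p from 0.0740 to 0.109), and also without any 1 wild type library and without mutant replicate 2 or 3 (adjusted p up to 0.346). The TMM factors were 1.84, 1.16 and 0.792 in the mutant and 2.29, 2.24 and 2.04 in wild type, and the part of these copies in them was not tested.

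Calls were uneven over the chromosomes. The share of tested genes called higher was 21.1% on chromosome 4 and between 4.79% and 13.9% on the others. The share called lower was highest on chromosome 15 (7.21%), chromosome 21 (5.56%) and chromosome 24 (5.11%), against 2.55% over all and 0.622% on chromosome 1. These shares were not tested, and a strain difference at linked genes cannot be told apart from the deletion here.

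The later stages have libraries of their own, which entered the calls at 256c only through the shared fit (its filter, scaling and spread) and not through the group means compared. Of the 1320 rises, 1132 had a positive log2 fold change at 1024c (85.8%, against 50.3% of all genes), 1221 at Oblong (92.5%, against 53.3%) and 932 at Sphere (70.6%, against 45.1%). In stage order, from 256c on, their median log2 fold changes were 4.33, 1.19, 0.90 and 0.28. The test called 181 of them higher at 1024c (13.7%, against 1.86% of all genes), 56 at Oblong (4.24%, against 0.656%) and 16 at Sphere (1.21%, against 0.304%). Of the 317 falls, 314 were negative at 1024c, 299 at Oblong and 259 at Sphere, with medians of -3.06, -2.62, -1.83 and -0.88 in stage order. Of these falls 148 were called lower at 1024c (46.7%, against 1.77%), 58 at Oblong (18.3%, against 0.779%) and 12 at Sphere (3.79%, against 0.329%). Since the calls were made at 256c, the size of the values there is not set against that at later stages.

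**Figure D5:**
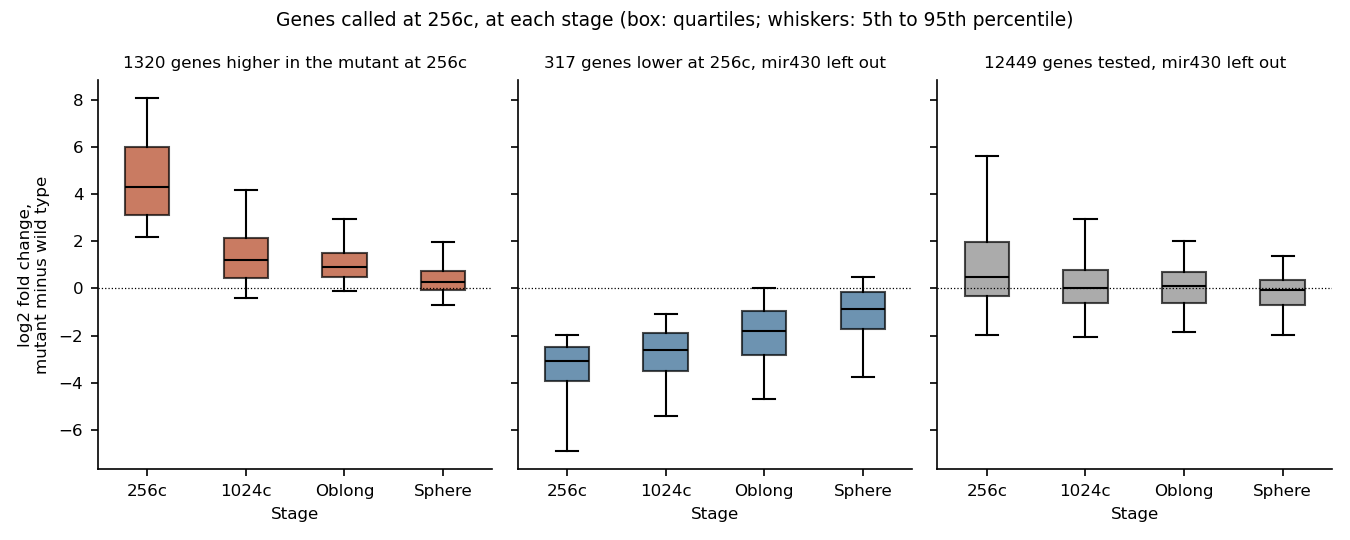
Log2 fold changes, mutant minus wild type, at the 4 stages for the 1320 genes higher at 256c, the 317 genes lower at 256c other than mir430, and all 12449 genes tested other than mir430. Boxes give the quartiles with the median as a line and whiskers the 5th to 95th percentile. The median of the rises was 4.33 at 256c and 0.28 at Sphere, and that of the falls -3.06 and -0.88. The genes were called at 256c, so the size there is not set against that at later stages.

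The 44 patterning factors that rose at 256c and the genes with the widest gap were followed separately, with no test of the difference between them. Of the 44, 1 was called higher at 1024c and none at Oblong or Sphere, with medians of 4.91, 0.59, 0.84 and 0.10 in stage order. Their median level in wild type went from 7.29 CPM at 256c to 177.7, 360.6 and 546 CPM at the later stages, and in the mutant from 164 to 368, 627 and 822 CPM. The mutant median at 256c thus lay near the wild type median at 1024c, and the part of embryo age in these rises was not tested. gata2a, for example, had a log2 fold change of 1.35 at 1024c, and klf2a of 0.42. Of the 12 rises with the widest gap, 10 were called higher at 1024c, 6 at Oblong and 2 at Sphere, and of the 12 falls 10, 9 and 1 were called lower. All 12 rises stayed positive and all 12 falls negative at each later stage. prdx1 had log2 fold changes of 5.99, 5.86 and 2.73, and sars1 of -4.92, -4.00 and -3.13 at 1024c, Oblong and Sphere.

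The difference between stages was itself tested with an interaction term. Against 1024c and against Oblong edgeR called 0 genes, with 1082 positive and 44 negative at an unadjusted p under 0.05 against 1024c and 1089 and 129 against Oblong. Against Sphere 87 genes were called, 76 with a larger mutant excess at 256c, of which 72 were among the rises, and 11 with the opposite, of which 9 were among the falls. The rises and falls were called at 256c, so their share of these genes is a description. No other tool was run on the interaction.

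The authors' deposited table of the same comparison marks genes at an adjusted p under 0.01 and a log2 fold change beyond 2 in size. It marks 716 as higher and 284 as lower, 42 of the latter mir430 genes. Of these, 713 and 276 were called in the same direction here, and 575 and 283 without TMM factors.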

How the data were processed

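The authors deposited 1 table of whole-number read counts for 32520 genes in 28 libraries, with exonic lengths, whose headings call the counts filtered; what was filtered and the strand setting of the counting are not given in the sources used here. Trimmomatic, HISAT, SAMtools, Picard, featureCounts, DESeq2 and GRCz11 are named in the submitters' processing notes, without versions used here. The authors also deposited a table of their comparison at 256c with log2 fold changes, their standard errors and a mean level per gene (scores), p-values and adjusted p-values. No converted-base counts were analysed here.

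The counts of the 24 IAA libraries were fitted in edgeR 4.0.16 (R 4.3.3) with 8 group means, by the quasi-likelihood test. Library sizes were nuclear counts other than mir430, with TMM factors on the same genes, filterByExpr as filter and Benjamini-Hochberg adjustment at 0.05 over all genes. Sharing the spread over 8 groups assumes that it is alike in them. Estimated for each group alone on nuclear library sizes, the spread (biological coefficient of variation) was not alike. It was 0.447 in wild type and 0.645 in the mutant at 256c, and 0.860 in wild type at Sphere. Adjusted p-values in the text are from this fit unless a setting is named. Limma 3.58.1, DESeq2 1.42.0, other scalings and filters, thinning, replicate blocks and leaving out each library served as alternatives. Single values were compared by two-sided exact permutation tests, and intervals (95%) cover counting error only. Genes with 0 counts in 1 group are given as bounds from 3 counts over that group, and genes with 1 to 3 counts as a ratio with an exact binomial interval.

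Genes were named by rule: cdk9, pou5f3, sox19b and nanog always; the 12 rises and 12 falls with the widest gap at a mean of 50 CPM or more; and up to 4 called members per list and direction by adjusted p. Members named beyond these were chosen after their values were seen. The libraries, the 29 gene lists and the rules were chosen with earlier results of these data known. Symbols are those of the count table, 29201 of whose genes also matched a supplied table of gene names, and coordinates are those of the count table's annotation in GRCz11. The main edgeR fit was tested on simulated counts, which had the same spread per gene in all groups. 1 member of the DNA damage list is not reported here.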

Additional observations from a re-analysis of the deposited data

Results flagged for a closer look

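The mutant effect at 256c and at Sphere differed by the interaction test (edgeR, adjusted p under 0.05) for 87 of 12498 genes tested. Among the 24 genes with the widest gap, 4 were of this kind. The log2 fold change at 256c exceeded that at Sphere by 9.07 for srek1ip1 (adjusted p = 0.0384), whose wild type libraries at 256c held 0 counts, so that the size depends on the prior count. It exceeded that at Sphere by 8.17 for ppp2r2aa (adjusted p = 0.0400), also with 0 wild type counts at 256c. The excess was 7.14 for hypk (adjusted p = 0.0386) and 3.83 for gng5 (adjusted p = 0.0470). All mutant libraries at 256c were above all wild type libraries for these 4 genes. The gap at 256c chose them, so this separation is a description. The choice also favours a larger effect at 256c than at Sphere.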

How the results depend on the processing

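The number of higher genes, 1320, became 648 without TMM factors, 2281 with limma voom and sample weights and 715 with a stricter filter. It was 584 with the 6 libraries alone, 645 with these and a replicate block, and 405 after thinning to equal depth. The number of lower genes, 360, became 646 without TMM factors, 628 by DESeq2, 819 with voom weights and 214 with the stricter filter. Leaving out 1 library gave 559 to 1632 higher and 211 to 248 lower. cdk9 was at 1.71 without TMM factors, not called, and at 2.18 to 3.61 with 1 library left out. The difference in genes detected at equal depth was 39.1 genes, -874 with at least 2 counts and 3277 as deposited. The mir430 difference was -8.41 percentage points of nuclear counts and -0.19 of all counts. With 1 library left out sox19b ran from -0.67 (without mutant replicate 3) to 0.51 (without wild type replicate 1), at 0.02 without mutant replicate 1, and it was at -1.17 without TMM factors. The 12 rises and 12 falls kept their direction under the alternatives run, and their call in 249 of 250 fits with every library and in 133 of 144 with 1 left out. They were chosen among the calls of the main fit by their gap in the same counts. That choice favours keeping direction and call, so these numbers are a description. The causes were not tested, beyond fewer libraries or genes where a setting removes them.

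The replicate numbers are shared between genotypes but nothing says that they pair libraries. Deviations of same-numbered libraries correlated at 0.116, 0.000134 and 0.0872. Mutant replicate 1 with wild type replicate 3 was at -0.103, and mutant replicate 3 with wild type replicate 1 at -0.0983. The same-numbered pairs were thus the highest for replicates 1 and 3, though weak. Whether the numbers pair libraries was not settled, and they were not taken as pairs. With the number as a replicate block in the fit of 24 libraries 1185 genes were higher and 331 lower, with 14 of the DNA damage list and 10 of the histone list higher and no germ plasm gene lower, and cdk9 was at 2.84 (adjusted p = 0.0137). Depth limits the wild type side most, where 140746 nuclear counts in wild type replicate 3 make 1 count worth 3.48 CPM.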
